A study of Mus musculus with 12 samples.

Results

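Argonaute 2 (AGO2) peaks in 3′ untranslated regions (3′ UTRs) of mouse tibialis anterior muscle are described here. A peak was taken as a 3′ UTR peak when its midpoint lay in the 3′ UTR of a protein-coding transcript on the same strand and in no coding sequence (CDS) on that strand, so position alone chose the members. Of 713343 peaks listed in 4 libraries, 98342 met this rule. There were 17770 of 92451 in WT set 1, 21821 of 119859 in KO set 1, 29657 of 244814 in WT set 2 and 29094 of 256219 in KO set 2. Merging overlapping or adjoining 3′ UTR peaks of all libraries gave 40329 regions in 10318 genes.

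The assay was chimeric eCLIP, in which AGO2 is cross-linked to RNA by ultraviolet light, immunoprecipitated and sequenced, and each immunoprecipitated (IP) library is set against an input library of the same lysate. The groups were wild-type muscle (WT, strain C57BL/6 in the labels) and muscle of miR-486-/- mice (mir-486 KO, strain FVB N/J in the labels), all from animals aged 6 months, which the methods give as male. Whole muscle was used, so each library mixes all of its cell types. The methods state that the knockout was backcrossed to C57BL/6J and that all mice shared that background, which the strain labels do not show. Each genotype had 1 IP library in each of 2 sets marked by the title prefix, so n = 2 libraries per genotype, and nothing in the labels says whether the sets came from different animals. The methods give 3 samples per genotype, run in duplicate, so the sets may be technical duplicates and an SD over libraries may then hold no spread between animals. The mir-486 gene, within Ank1 at chr8:23142555-23142682, served as a check of the labels: 2 enriched peaks covered it in WT set 1 (highest log2 fold 6.62) and 4 in WT set 2 (highest log2 fold 4.99), and none was listed in either KO library.

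MicroRNAs guide Argonaute proteins to messenger RNAs mainly through the seed, the bases near the 5′ end of the microRNA, which pair with short complementary words that lie for the most part in 3′ UTRs. Binding lowers translation and shortens the life of the message through GW182 (TNRC6) proteins and deadenylation. Skeletal muscle is rich in the myomiRs miR-1, miR-206 and miR-133, and miR-486 is a further muscle-enriched microRNA, encoded in an intron of Ank1. A peak marks where AGO2 was cross-linked and does not name the microRNA that was loaded.

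Seed matches were read as the 7-nt word complementary to bases 2 to 8 of a mature microRNA, on the strand of the peak, in the peak extended by 25 nt on each side. Mature sequences of 19 families were matched to RefSeq (GRCm38.p6), with miR-206 standing for itself and miR-1, which share a seed, and miR-133b for miR-133. The sequences below are those whose matches set the families apart in these peaks, with 3 families at the end whose matches were not higher in enriched peaks of all libraries (5′ to 3′, seed in capitals).

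miR-206-3p: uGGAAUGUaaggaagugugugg
miR-133b-3p: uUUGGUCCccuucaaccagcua
let-7a-5p: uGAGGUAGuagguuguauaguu
miR-29a-3p: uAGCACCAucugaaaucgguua
miR-30a-5p: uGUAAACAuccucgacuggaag
miR-26a-5p: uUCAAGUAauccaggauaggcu
miR-24-3p: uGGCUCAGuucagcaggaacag
miR-10b-5p: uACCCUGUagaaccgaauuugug
miR-125b-5p: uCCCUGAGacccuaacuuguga

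The words searched for them were ACATTCC (miR-206), GGACCAA (miR-133), CTACCTC (let-7), TGGTGCT (miR-29), TGTTTAC (miR-30), TACTTGA (miR-26), CTGAGCC (miR-24), ACAGGGT (miR-10) and CTCAGGG (miR-125). No mature sequence was matched for miR-486-5p, so its seed is not analysed here.

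Sites were printed from the regions with the highest mean folds among those enriched in all 4 libraries that held the given word, to show what AGO2-bound 3′ UTR sequence looked like in this muscle. Each is given as 30 nt of the transcript strand (GRCm38.p6), with the word complementary to the seed in capitals. The first 4 hold the miR-206 word and the last 4 the miR-133 word, and an enriched peak covered each one, with the 25-nt extension, in all 4 libraries.

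Ankib1, chr5:3690515-3690544 (minus strand): tttcatagtctatacttgatACATTCCcac
Fam126b, chr1:58525749-58525778 (minus strand): gattccatttagtagcttttACATTCCgtt
Uhmk1, chr1:170194580-170194609 (minus strand): taaaacattgcctttctcatACATTCCtca
Hdac4, chr1:91930057-91930086 (minus strand): gttgtgtttctttcctcagaACATTCCttc
Sgk1, chr10:21999552-21999581 (plus strand): tttttagaaagggtttttatGGACCAAtgc
Pfkfb3, chr2:11472233-11472262 (minus strand): aaaacagcaaaataaaatggGGACCAAtgt
Dusp1, chr17:26506056-26506085 (minus strand): tgctgaactcggcacattcgGGACCAAtat
Vamp2, chr11:69091546-69091575 (plus strand): ggagttcagtgtgttatgatGGACCAAtaa

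The share of listed peaks that lay in 3′ UTRs was examined first. It was 19.2% in WT set 1, 18.2% in KO set 1, 12.1% in WT set 2 and 11.4% in KO set 2, so the sets stood further apart than the genotypes did. The WT mean was 15.7% ± 5.03 and the KO mean 14.8% ± 4.84 (SD, n = 2 libraries each). By nucleotides covered rather than peaks the mean over the 4 libraries was 18.6% ± 3.37. A 3′ UTR peak had a median length of 69 to 103 nt, and 0.28% to 0.34% of these peaks lay in 3′ UTRs of more than 1 gene.

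A peak was called enriched where its log2 fold over input and its −log10 p, both as deposited, each reached 3. Enriched 3′ UTR peaks numbered 1048 in WT set 1 (5.90% of its 3′ UTR peaks, against 3.57% of all listed peaks), 357 in KO set 1 (1.64% against 0.848%), 1054 in WT set 2 (3.55% against 1.42%) and 1032 in KO set 2 (3.55% against 1.23%). They made up 30.3% to 35.1% of all enriched peaks of a library. The percentage enriched was higher in 3′ UTRs than in the other listed peaks in 4 of 4 libraries, by 2.22 percentage points ± 0.860 (SD, n = 4). The gap was 2.30 ± 0.627 points over CDS peaks, 2.79 ± 1.41 over intron peaks and 1.89 ± 0.628 over 5′ UTR peaks, each in the same direction in 4 of 4 libraries. The exact paired permutation test gave a two-sided p of 0.125 for each (0.125 after adjustment over 4 comparisons), which is the smallest this test can give with 4 libraries, so it could not pass 0.05. Peaks in noncoding exons had higher percentages than 3′ UTRs in every library, from 4.74% to 10.02%.

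**Figure D1:**
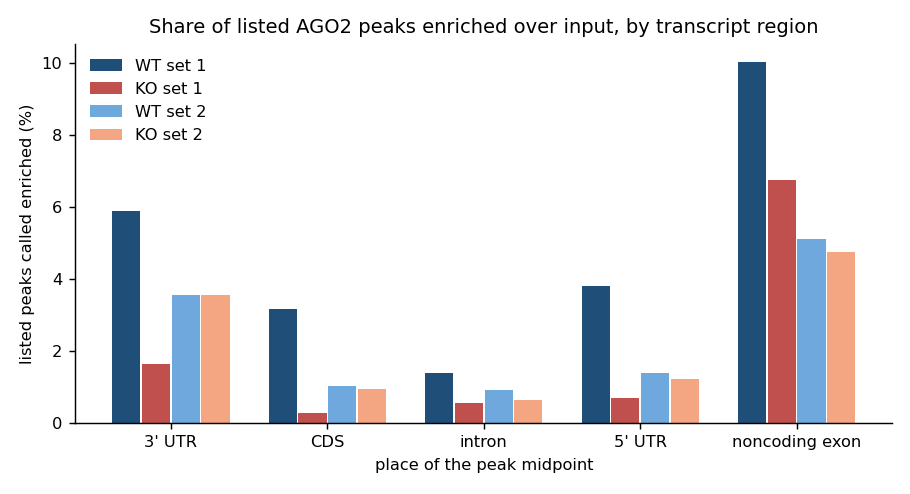
Percentage of listed peaks called enriched (y axis) by the place of the peak midpoint (x axis), 1 bar per IP library. 3′ UTR bars run from 1.64% to 5.90% and are above the CDS, intron and 5′ UTR bars of the same library in all 4 libraries, and below its noncoding exon bar.

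Fold over input without a threshold gave a narrower picture. The median log2 fold of 3′ UTR peaks was 0.87 in WT set 1, 0.61 in KO set 1, 0.60 in WT set 2 and 0.56 in KO set 2. It was above the median of the other peaks in 4 of 4 libraries, by 0.22 ± 0.11 (exact permutation p 0.125), and above that of CDS peaks by 0.36 ± 0.12. Against intron peaks it was higher in both libraries of set 1 and lower in both of set 2, with a mean difference of 0.06 ± 0.31 (exact permutation p 0.625).

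Enriched 3′ UTR peaks were longer than the others. Their median length was 132, 131, 152.5 and 143 nt in WT set 1, KO set 1, WT set 2 and KO set 2, against 73, 69, 102 and 97 nt for 3′ UTR peaks that were not enriched. They were also poorer in G and C, with a median GC content of 40.5% to 44.5% against 46.3% to 46.9%. Since a longer peak holds any word more often, seed matches are given below per peak and, for the main families, per kilobase.

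Along the spliced 3′ UTR, listed peaks lay more in the part next to the stop codon. The first 10% of the longest 3′ UTR that held the peak had 15.2% ± 0.848 of listed peaks and 14.5% ± 1.63 of enriched peaks (SD, n = 4 libraries), and the last 10% had 7.58% ± 0.248 and 8.04% ± 0.813. In the first and in the last 10% the means of enriched and listed peaks differed by less than the SD of the enriched peaks. Within 100 nt of the start of the UTR lay 10.3% ± 1.012 of listed and 8.38% ± 1.30 of enriched peaks. Enriched peaks were the lower there in every library. The values were 9.06% against 10.87% in WT set 1 and 6.44% against 8.77% in KO set 1. In WT set 2 they were 9.11% against 10.74%, and in KO set 2 8.91% against 10.77%. With the shortest 3′ UTR that held the midpoint, the first 10% had 10.4% of enriched peaks, near the 10% of an even spread. The excess of enriched peaks next to the stop codon thus depended on the isoform read. Listed peaks were not placed on the shortest 3′ UTR.

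Seed matches of the muscle microRNAs stood out among enriched peaks. The miR-206 word was in 18.2% of enriched 3′ UTR peaks in WT set 1 (191 of 1048, 95% Wilson interval 16.01 to 20.68), 22.4% in KO set 1 (80 of 357, 18.39 to 27.02), 16.4% in WT set 2 (173 of 1054, 14.30 to 18.77) and 17.4% in KO set 2 (180 of 1032, 15.25 to 19.88). Among 3′ UTR peaks that were not enriched it was in 3.56%, 2.595%, 2.86% and 2.79%, and in 1.082% of 138084 windows of 136 nt tiled over the 3′ UTRs of the genes with a listed peak. The windows had the median length of all listed 3′ UTR peaks with the extension. Enriched peaks with the extension had a longer median, so a window holds any word less often than they do. The percentages of enriched and other peaks did not overlap between libraries, and the ratio of these percentages ran from 5.12 to 8.64. The intervals cover counting error only and treat peaks as independent. Some enriched peaks adjoined: merged, they made 903 sites in WT set 1, 296 in KO set 1, 797 in WT set 2 and 797 in KO set 2. Adjoining peaks can share a word through the extension, so the intervals may be too narrow.

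The miR-133 word was in 8.84% ± 1.65 of enriched and 2.01% ± 0.276 of other 3′ UTR peaks (SD, n = 4), and in 0.784% of tiled windows. The enriched values were 7.54%, 7.28%, 10.2% and 10.4% in WT set 1, KO set 1, WT set 2 and KO set 2, so set 2 was above set 1 in both genotypes. Either muscle word was in 26.8% ± 1.63 of enriched peaks, 4.93% ± 0.690 of the others and 1.86% of tiled windows.

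Several widely expressed families followed at lower levels. Per peak, the word was in 6.73% of enriched against 3.43% of other peaks for miR-29, which targets collagens, in 6.65% against 3.32% for miR-30, in 4.88% against 1.97% for miR-26 and in 4.83% against 2.12% for let-7. Tiled windows held these words in 1.503%, 1.57%, 1.02% and 0.966%. The percentage was higher in enriched peaks of 4 of 4 libraries for 15 of 19 families. Each of those had an exact paired permutation p of 0.125, the smallest possible, and an adjusted p of 0.140 over the 19 families.

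The longer enriched peaks bear on that count. In a fixed window of 50 nt on each side of the midpoint, 8 families were higher in all 4 libraries, and by matches per kilobase 9 were. The 8 were miR-206, miR-133, let-7, miR-29, miR-30, miR-26, miR-101 and miR-9. Per kilobase, miR-206 had 0.986 matches in enriched and 0.211 in other peaks, and miR-133 had 0.462 and 0.144. The gap was narrower for miR-29 (0.361 and 0.247), miR-30 (0.353 and 0.238), miR-26 (0.264 and 0.141) and let-7 (0.260 and 0.154). In KO set 1, miR-30 had 0.227 and 0.216. By the same measure miR-15/16, whose word was in 6.49% of enriched and 4.68% of other peaks, had 0.393 and 0.381. The miR-9 word ACCAAAG shares its first 5 letters with the last 5 of the miR-133 word, and 27.3% to 46.8% of enriched peaks with the miR-9 word held it as part of a miR-133 match.

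Matches of 4 families were not higher throughout. Their words are made mostly of G and C, as are those of miR-133 and let-7, and enriched peaks were poorer in these bases. Base composition was not adjusted for, and its part in the differences between families was not tested. The miR-10 word was in 0.976% ± 0.0974 of enriched and 1.29% ± 0.254 of other peaks, lower in 4 of 4 libraries (exact permutation p 0.125), but with enrichment called from a log2 fold of 1 it was higher in 4 of 4, by 0.253 points. The miR-125 word was in 1.62% and 2.03%, and was higher only in WT set 2. The miR-24 word was in 2.76% and 2.52%, and was lower only in KO set 1. The miR-126 word, which only 0.0174% of tiled windows held, was in no enriched peak and in 0.0316% of the others.

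**Figure D2:**
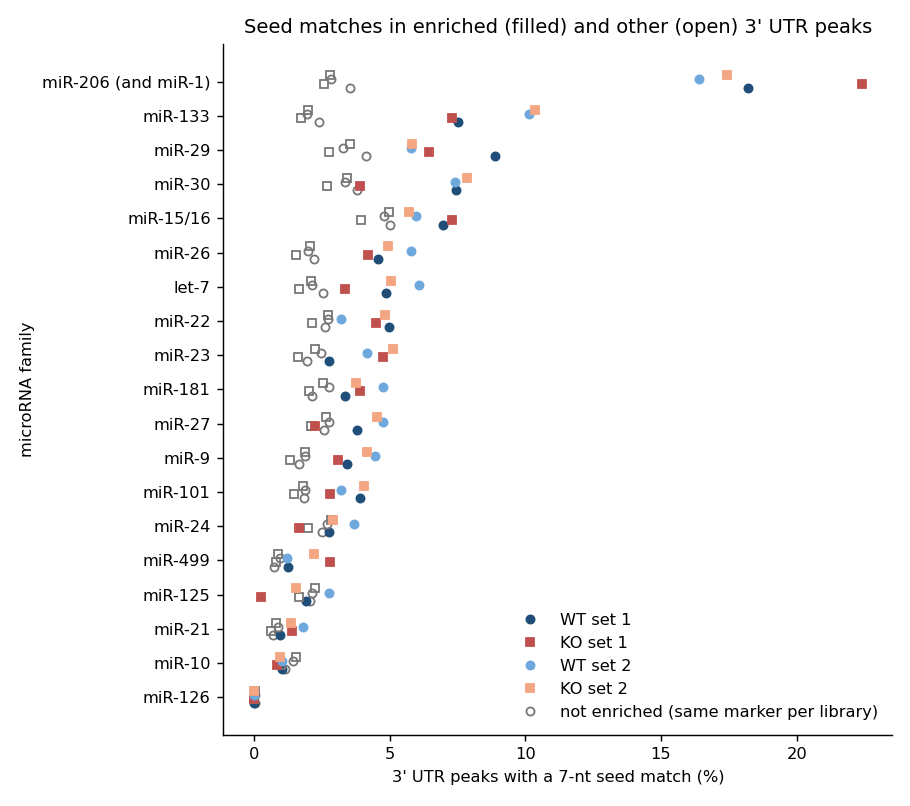
Percentage of 3′ UTR peaks with a 7-nt seed match (x axis) for each microRNA family (y axis), with filled markers for enriched and open markers for other peaks, 1 marker per library. miR-206 (16.4% to 22.4% filled, 2.595% to 3.56% open) and miR-133 lie farthest from their open markers.

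Matches were also placed by their distance from the peak midpoint, counted along the transcript in bins of 20 nt. The miR-206 word gathered at the centre of enriched peaks, with 4.32 ± 1.55 matches per 100 peaks in the 20 nt before the midpoint and 3.99 ± 1.60 in the 20 nt after it, against 0.426 ± 0.222 in the bin from 200 to 180 nt before it (SD, n = 4). Other 3′ UTR peaks had 0.589 ± 0.166 and 0.651 ± 0.293 in the central bins, against 0.159 ± 0.0229 in the same outer bin. The word thus gathered at their centre too, at a lower level. The miR-133 word had 1.79 ± 0.377 and 1.67 ± 0.571 in the central bins of enriched peaks and 0.431 ± 0.156 and 0.396 ± 0.186 in those of other peaks. For miR-24 the enriched peaks had 0.358 ± 0.0960 and 0.333 ± 0.198 there, and other peaks had 0.447 ± 0.0456 and 0.441 ± 0.0849.

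**Figure D3:**
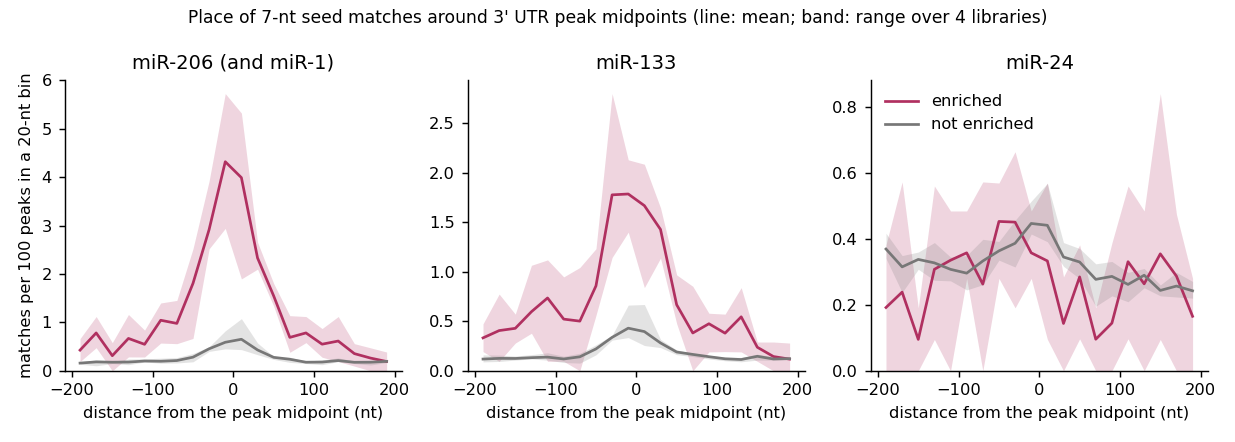
Seed matches per 100 peaks in 20-nt bins (y axis) against distance from the peak midpoint in nt (x axis) for miR-206, miR-133 and miR-24, where lines are means and bands the range over 4 libraries; the y axes differ. The miR-206 line of enriched peaks reaches 4.32 beside the midpoint, that of miR-133 1.79, and that of miR-24 (0.358) lies below the line of other peaks (0.447) there.

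Recurrence between libraries was then counted. Of the 40329 merged regions, 6722 held a listed peak in all 4 libraries and 1628 an enriched peak in at least 1. Among those 1628, 988 were enriched in 1 library, 343 in 2, 190 in 3 and 107 in all 4. The 107 lay in 105 genes and were 1.59% of the 3′ UTR regions listed in all 4 libraries, against 0.965% of the regions merged from all listed peaks (0.265% against 0.0866% of all regions). Of the libraries, leaving out KO set 1, which had the fewest enriched peaks, moved the count most: 237 regions were enriched in the other 3. The count was 459 at a log2 fold of at least 1 and 19 at 4. Enriched peaks of WT set 2 overlapped one of KO set 2 in 55.4%, and the reverse in 57.6%. In set 1 the shares were 22.8% of WT peaks and 64.1% of KO peaks. Between the WT libraries they were 37.4% of set 1 and 41.2% of set 2, and between the KO libraries 52.9% of set 1 and 22.1% of set 2.

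The 107 regions held the muscle words more often than the regions listed in all 4 libraries, and words of several other families too. The miR-206 word was in 46 of them (43.0%), against 9.16% of the regions listed in all 4 libraries, and the miR-133 word in 15 (14.0% against 5.79%). Either was in 56. The words of miR-23 (13.1% against 5.34%) and miR-21 (7.48% against 1.92%) were also more frequent, so the excess was not particular to the muscle words. The same held for miR-30 (14.0% against 8.54%), miR-26 (9.35% against 5.27%) and let-7 (8.41% against 5.19%). Words of other families were less frequent, such as those of miR-29 (5.61% against 8.60%), miR-27 (4.67% against 6.41%) and miR-24 (4.67% against 5.88%). The 107 were longer than the regions listed in all 4, with a median of 407 against 276 nt, and 22 held no word of the 19 families. Such regions were chosen through their folds, so these values describe them and were not tested.

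**Figure D4:**
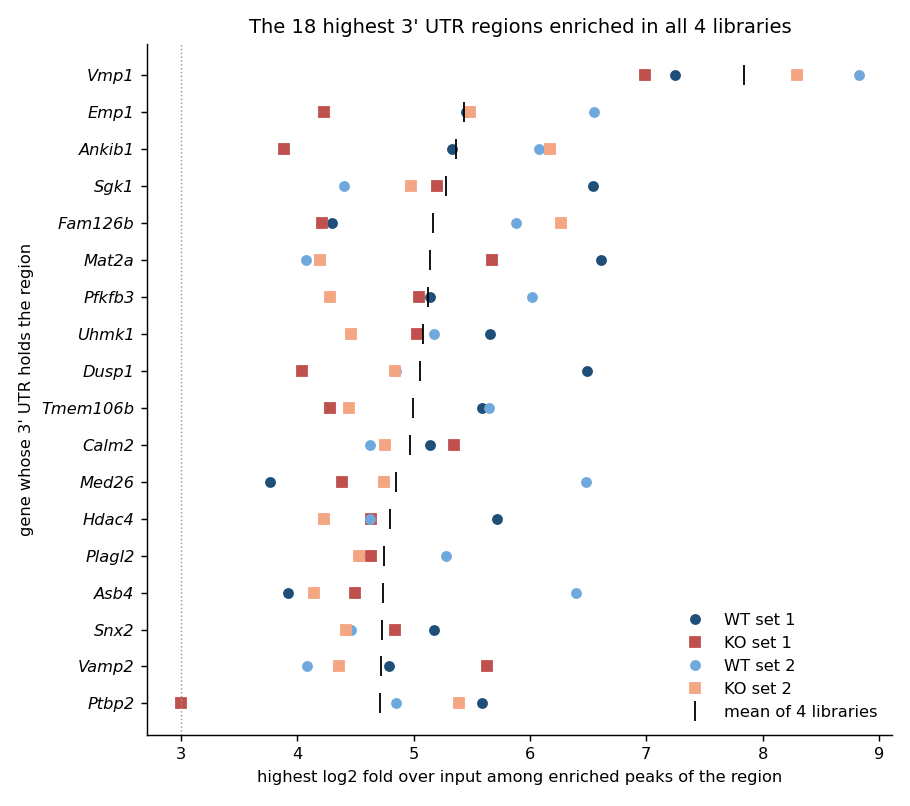
Highest log2 fold over input among enriched peaks (x axis) in each library for the 18 genes (y axis) with the highest mean, with 1 marker per library, a bar at the mean and a dotted line at the threshold of 3. Vmp1 lies between 6.99 and 8.83, and the others between 3.00 and 6.61.

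The highest region lay in the 3′ UTR of Vmp1, which encodes a membrane protein of the endoplasmic reticulum needed for autophagy. Its log2 fold was 7.25 in WT set 1, 6.99 in KO set 1, 8.83 in WT set 2 and 8.29 in KO set 2, higher in set 2 than in set 1 for both genotypes. The region (chr11:86584079-86584145) overlaps the hairpin of Mir21a, which lies in this 3′ UTR, so the reads may come from the message, the precursor or miR-21 itself and the files do not separate them. In a library, 8 to 13 listed 3′ UTR peaks overlapped a microRNA hairpin, over 12 hairpins in all. A further one was Mir324 in Dvl2, with log2 folds of 4.04, 4.87, 4.28 and 4.56. Without peaks over hairpins the count of regions enriched in all 4 libraries was 105.

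Next came Emp1, an epithelial membrane protein, and Ankib1, a ubiquitin ligase of the RBR type. Emp1 had log2 folds of 5.45, 4.23, 6.55 and 5.49 in WT set 1, KO set 1, WT set 2 and KO set 2, and no word of the 19 families. Ankib1 had 5.33, 3.89, 6.07 and 6.17, and held the miR-206 and miR-26 words. In both genes KO set 1 was the lowest library.

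Some of the highest regions lay in genes for enzymes of signalling and metabolism. Sgk1, a kinase of the insulin and glucocorticoid response, had 6.55, 5.20, 4.40 and 4.98, and was higher in set 1 than in set 2. Dusp1, a phosphatase that inactivates MAP kinases, had 6.49, 4.04, 4.85 and 4.84. Pfkfb3, which makes the glycolysis activator fructose-2,6-bisphosphate, had 5.14, 5.05, 6.01 and 4.28. All of these held the miR-133 word. Uhmk1, a serine/threonine kinase, held the miR-206 word and had 5.66, 5.03, 5.17 and 4.46, the narrowest spread of the 4 (mean 5.08 ± 0.49).

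Regulators of transcription and RNA included Hdac4, a deacetylase that represses MEF2 and a textbook miR-1 target. Its region had log2 folds of 5.71, 4.63, 4.62 and 4.23, with WT set 1 the highest. Ptbp2, a splicing regulator known as a miR-133 target, had 5.59, 3.00, 4.85 and 5.39, but the region held neither the miR-133 word nor any other. Zfp36, which binds AU-rich elements and promotes decay of messages, had 5.99, 3.26, 4.29 and 4.81, and the Mediator subunit Med26 had 3.77, 4.38, 6.49 and 4.75. KO set 1 was the lowest library for Ptbp2 and Zfp36 and WT set 1 for Med26, so no library was lowest throughout.

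Calm2, a gene for the calcium sensor calmodulin, had 5.14, 5.35, 4.63 and 4.76 (mean 4.97 ± 0.33), with the WT and KO libraries overlapping. It had no word of the 19 families. Vamp2, a SNARE of vesicle fusion, had 4.79, 5.63, 4.09 and 4.35 and held both muscle words. Mat2a, the enzyme that makes S-adenosylmethionine, had 6.61, 5.68, 4.07 and 4.20. Among other genes of the 24 (Fam126b, Tmem106b, Plagl2, Asb4, Snx2, Snx18, Blcap, Stk35 and Ndrg3) the mean ran from 4.60 to 5.16. Tmem106b, a lysosomal membrane protein, was the only gene with more than 1 region enriched in all 4 libraries. It had 3, with means of 4.99 ± 0.73, 4.19 ± 1.17 and 3.45 ± 0.05.

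Gene lists of muscle pathways were set against all genes with a listed 3′ UTR peak, of which 12.5% had an enriched one in at least 1 library and 1.14% in all 4. The level of each gene below is the highest log2 fold of its 3′ UTR peaks, whatever the region, and each list's median is the mean over libraries of that level over the genes listed in all 4. The median over all such genes was 1.43. Genes differed in their number of 3′ UTR peaks, and the highest of many peaks tends to exceed that of few. This was not adjusted for.

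Sarcomere genes were listed often and enriched never. Of 38, 35 had a listed 3′ UTR peak, and none had an enriched one at these thresholds. Their median level was −0.62. Acta1, the skeletal actin, had 0.69, 0.03, −0.10 and −0.20 in WT set 1, KO set 1, WT set 2 and KO set 2, and Ttn (titin) had 2.09, 0.77, 1.05 and 2.15. The tropomyosin genes Tpm2 and Tpm3 were the highest of those listed in all 4, at 2.59 ± 0.09 and 2.55 ± 0.66, while Tpm1 was at −1.09 ± 0.15. Tpm3 reached 3.5 in KO set 1 without the −log10 p of the call.

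Metabolic, calcium and atrophy genes had medians below that of all genes. Of 19 glycolysis and glycogen genes with a listed peak, 2 had an enriched one, Phka1 (a phosphorylase kinase subunit) in 2 libraries and Gbe1 (the glycogen branching enzyme) in 1, and the median level was −0.36. Of 25 calcium-handling genes, Calm2 was enriched in all 4 and Camk2d in 1 library, with a median of 0.66. Of 16 ubiquitin ligase and atrophy genes, 4 (Trim63, Foxo1, Foxo3 and Cblb) had an enriched peak, in each case in WT set 1 alone, and the median was 1.18. Trim63 (MuRF1), a ligase for sarcomere proteins, had 4.04, 2.02, 2.12 and 2.07, so WT set 1 stood apart from the other libraries.

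Other lists held genes enriched in all 4 libraries. Of 23 genes of the microRNA machinery and mRNA decay, 10 had an enriched peak and Tnrc6a and Tnrc6b had one in all 4, with a median of 2.33. These encode GW182 proteins, which AGO2 binds. Tnrc6a had 3.27, 3.5, 4.29 and 5.33, higher in set 2, and Tnrc6b had 3.72, 3.87, 3.84 and 4.01. Of 29 growth signalling genes, 12 had an enriched peak, and 2, Fstl1 among them, had one in all 4 (median 2.29). Of 28 muscle transcription regulators, 7 had one, and Hdac4 and Nfatc3 had one in all 4 (median 1.51). Of 26 extracellular matrix genes, 10 had one, and Col1a1 had one in all 4, with 4.60, 3.26, 3.57 and 3.33 (median 2.21). Tnrc6b and Col1a1 had no single region enriched in all 4 libraries, so their enriched peaks lay in different regions.

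Known targets of single microRNAs made small lists. Of 18 targets of miR-1 or miR-206 with a listed peak, 9 had an enriched one and 4 in all 4 libraries (Hdac4, Fstl1, Notch3 and Tppp), with a median level of 3.25. Tppp had a region at 4.63, 4.08, 4.01 and 3.04 with the miR-206 word. The regions of Notch3 (3.37, 5.01, 4.21 and 4.0) and Fstl1 (3.43, 4.62, 4.24 and 3.83) did not hold it. Of 9 miR-133 targets, 4 had an enriched peak and Ptbp2 had one in all 4 (median 3.12). Of 13 miR-29 targets, 8 had one, and Col1a1, Hdac4 and Dnmt3a had one in all 4 (median 2.79). The Dnmt3a region held the miR-206 and miR-26 words and not that of miR-29. Of 6 let-7 targets, 2 had an enriched peak (Dicer1 and Arid3b). These lists were chosen with earlier results known and share genes, so the counts are descriptions.

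Among known miR-486 targets, Foxo1 and Pax7 had a listed 3′ UTR peak and Dock3 had none. Foxo1, a transcription factor that promotes muscle atrophy, had 3.44 in WT set 1, 2.44 in KO set 1, 2.01 in WT set 2 and 2.23 in KO set 2, lower in KO in set 1 and higher in set 2, so the genotypes overlapped. Pax7, a factor of satellite cells, was listed in 3 libraries and enriched in none.

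The study used the KO muscle as the control in its search for transcripts bound by miR-486. For that search it amplified the chimeras with a miR-486 primer, and those separate libraries are not analysed here. The total IP libraries, which are not selected for a microRNA, were compared between genotypes within a set. KO over WT, the count of enriched 3′ UTR peaks had a log2 ratio of −1.55 in set 1 and −0.03 in set 2 (mean −0.79 ± 1.08, n = 2 sets). Enriched peaks of all regions were also fewer in KO set 1 (1016 against 3297), and relative to them the mean log2 ratio was 0.13. Over the 6722 regions listed in all 4 libraries, the median KO minus WT difference of the highest log2 fold was −0.53 in set 1 and 0.02 in set 2, and over all 33765 regions of any kind listed in all 4 it was −0.75 and 0.02. The sets thus gave different values. A limma fit of KO against WT over those 33765 regions called none at an adjusted p under 0.05, also with the set as a block (0% of all regions in both). Of the 6720 that held a 3′ UTR region listed in all 4 libraries, 1.98% had an unadjusted p under 0.05, against 3.47% of all, and with the block 2.40% against 4.05%. Regions not listed in all 4 libraries entered neither the medians nor the fit. A site whose peak was lost in KO was therefore not tested. Regions with the miR-206 word had medians of −0.59 and 0.03, and those with the miR-133 word −0.61 and −0.01, close to the −0.51 and 0.02 of regions with neither.

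Among regions listed in all 4 libraries, 357 were enriched in both libraries of at least 1 genotype. The difference had the same sign in both sets in 195 of them, 160 lower in KO (44.8%, against 42.3% of such regions of all kinds) and 35 higher (9.80% against 13.6%). By at least 1 on the log2 scale in both sets, 28 were lower in KO (7.84% against 8.12%) and 2 higher (0.560% against 0.541%). These shares were near those of such regions of all kinds. Fewer peaks were enriched in KO set 1 than in WT set 1, so more regions could enter the 357 through WT. That choice favours a lower value in KO, so the split by direction is not a result about genotype. Across the 357 regions, which are not independent replicates, the differences of the 2 sets had a Spearman rho of 0.12. It was −0.03 across all 6722 regions listed in all 4 libraries and −0.17 across the 107 enriched in all 4.

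The regions with the largest differences of one sign in both sets are given as values, since that contrast chose them. If the strain labels hold, strain and loss of mir-486 cannot be told apart in these or any other KO and WT differences. Lowest in KO was Ralgds, an exchange factor for Ral GTPases (chr2:28552309-28552587), with a log2 fold of 3.20 in WT set 1, −1.20 in KO set 1, 4.0 in WT set 2 and 0.04 in KO set 2. Both WT libraries were above both KO libraries by more than 3. It held no word of the 19 families. Its adjusted p in the limma fit, the lowest of all regions, was 0.330 without and 0.0537 with the set as a block. Plk3, a polo-like kinase, had 4.0, 1.38, 3.06 and 0.97, and Lrrfip1 had 5.56, 2.91, 5.02 and 3.25. Purg had 3.87, −0.62, 3.33 and 1.94. Tnfrsf1b, a receptor for tumour necrosis factor, had 3.68, −0.72, 3.08 and 2.82, so its difference came almost wholly from set 1.

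Differences in the other direction were smaller. Nfat5, the transcription factor of the osmotic response, had 1.96, 3.97, 2.80 and 3.67 in WT set 1, KO set 1, WT set 2 and KO set 2. Wdr6 had 2.54, 3.93, 3.38 and 4.85, Tmem33 had 2.82, 4.26, 2.24 and 3.54, Tent4b (a noncanonical poly(A) polymerase) had 2.38, 4.16, 2.45 and 3.34, and Ctsc (cathepsin C) had 2.96, 4.44, 2.47 and 3.35. In all 10 named regions, of either direction, the WT and KO libraries did not overlap. The choice by large differences of one sign in both sets favours this. The share of such regions among all regions was not counted. With the length-weighted mean fold of the region in place of the highest, all 10 named regions kept their direction.

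**Figure D5:**
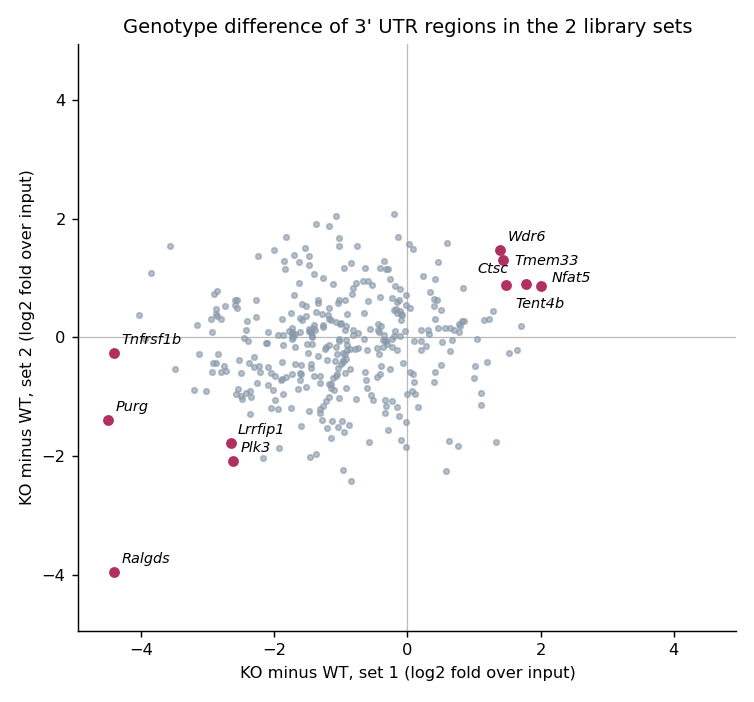
KO minus WT difference of the highest log2 fold in set 1 (x axis) and set 2 (y axis) for the 357 regions enriched in both libraries of a genotype, with the 10 named regions in red. Points spread to the left along the set 1 axis (median −1.04) and lie around 0 on the set 2 axis (median −0.05), and Ralgds alone lies below −3 in both sets.

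Markers of the cell types that whole muscle can hold were read in the same peaks. Of 8 fast-fibre markers 6 to 7 had a listed 3′ UTR peak in a library, and none was enriched. All 5 endothelial and all 5 fibroblast markers were listed in every library, and Col1a1 and Col3a1 among the latter had enriched peaks. B cell markers were listed only in WT set 2 (2 of 5, with Cd79b enriched), and Cd79a and Ighm had no listed peak. Slow-fibre markers were listed 1 to 4 of 5, Schwann cell markers 3 of 3, satellite cell markers 0 to 1 of 2 and smooth muscle markers 2 to 3 of 3, with Acta2 of the last enriched. Macrophage markers were listed 3 to 4 of 7, red cell markers 2 to 4 of 6, with Hbb-bs enriched in at least 1 library, and adipocyte markers 0 to 2 of 4. Peaks are called within each library, so a listed marker gives no RNA level. The part of other cell types in the values above was not tested.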

How the data were processed

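Total IP libraries of chimeric eCLIP from WT and mir-486 KO tibialis anterior were analysed from 4 peak lists. Per the methods, the authors trimmed reads with Cutadapt, aligned them with STAR to GRCm38/mm10, called peaks per library with CLIPper, set each peak against its input and collapsed overlapping peaks, without pooling. The deposited columns give the −log10 p of each peak (highest value 400) and its log2 fold over input. Read depth is not in the lists; 70.6% to 90.5% of log2 folds fell, after a constant per library, on ratios of whole numbers with denominators up to 12 (relative tolerance 1e-06), and the depth behind a value is unknown. Another 4 deposited lists hold the authors' direct WT and KO comparison and were not used.

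Midpoints were placed in GENCODE M21 transcripts (the labels name M24), and sequence was read from GRCm38.p6 with Python 3.11.15, pandas 2.3.3 and NumPy 2.4.6. Members and gene lists were chosen with earlier results of these data known. Tests were exact two-sided paired permutations (sign flips) over the 4 libraries with Benjamini-Hochberg adjustment. KO and WT were also compared by limma 3.58.1 on the highest log2 fold of each region of all listed peaks listed in all 4 libraries. Genes were named by rule: the 24 highest regions enriched in all libraries, 1 per gene, the 5 largest KO minus WT differences of the same sign in both sets in each direction, genes with several regions enriched in all libraries, list members enriched in all libraries, and the highest region per microRNA family. Scripts were tested on simulated data. Alternatives were other thresholds, region rules, merging, overlap, seed windows and words, isoforms, centring, each set alone and each library left out. Some named genes are not reported here.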

Additional observations from a re-analysis of the deposited data

How the results depend on the processing

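The KO minus WT differences changed sign when centred on all listed peaks or regions of the set: the mean log2 ratio of counts went from −0.79 to 0.13 and the mean median difference of regions from −0.26 to 0.11, each by less than the SD between sets. Regions enriched in all 4 libraries numbered 459 at a log2 fold of at least 1 and 19 at 4, and genes enriched in all 4 libraries 406 and 21. The count of regions was 117 to 237 when each library was left out. The mean overlap between libraries was 60.6% at a log2 fold of at least 1, against 42.6%. Families with more seed matches in enriched peaks of all 4 libraries numbered 8 of 19 in a window of 50 nt on each side of the midpoint and 9 by matches per kilobase, both chosen after seeing the data, against 15. The first 10% of the shortest 3′ UTR held 10.4% of enriched peaks. The sign of the difference turned for miR-24 (−0.177 points in that window, −0.0402 matches per kilobase, and −0.0100 to 0.431 points with each library left out), for miR-10 at a log2 fold of at least 1 (0.253), for miR-126 with peaks extended by 50 nt (0.00722) and for miR-181 in the fixed window (−0.0849). The seed split by miR-486 was not run, since no mature sequence was matched. The limma fit of KO against WT, added after seeing the data, called 0 3′ UTR regions without and 0 with the set as a replicate block.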
